A study of Mus musculus with 5 samples.

Results

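The genes of cholesterol synthesis and of its control by the transcription factor SREBP2 were examined in livers that carried *Lifr* and in livers whose hepatocytes had lost it. A list of 28 genes was matched by symbol to the expression table, which holds 23793 genes, and 27 of the 28 have a row of their own. All 27 passed the filter on low values, an average of 0.5 FPKM or more across 5 libraries, as did 11687 genes in all. The 28 genes are 20 enzymes of the pathway, 6 genes of SREBP2 and its control, and 2 genes of sterol transport and receptor turnover. The remaining enzyme, *Tm7sf2*, a sterol reductase, is listed only in a row shared with its neighbor *Vps51*. That row was at 90.2 and 106 FPKM in control livers and at 74.9, 87.0 and 88.6 FPKM in knockout livers, and these values belong to both genes, so it was not counted as a member.

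The controls were 2 *Lifr* fl/fl mice (labelled Lifrfl/fl) and the knockouts were 3 *Lifr* fl/fl;Alb-Cre mice (labelled Lifrfl/fl;Crealb/alb). All 5 mice were C57BL/6, were labelled 12 weeks of age, carried the floxed *Lifr* allele on both chromosomes and are not described as treated. By the study's reporting summary its laboratory mice were male. Cre recombinase is driven by the albumin promoter, which is active in hepatocytes, and removes an exon of *Lifr*, which encodes the leukemia inhibitory factor receptor. Since no mice had Cre alone, what Cre does and what losing *Lifr* does cannot be told apart. *Lifr* was at 132 and 151 FPKM in control livers and at 32.8, 44.3 and 54.8 FPKM in knockout livers (log2 fold change -1.71, limma, adjusted p = 0.0045). The level covers the whole transcript and all cells of the tissue, and the source of the reads left in knockout livers was not tested. The adjusted p ran from 0.00084 to 0.313 over 12 alternative settings and was over the threshold of 0.05 in 3 of them. Hepatocyte markers were abundant in both groups, with *Ahsg* at 4014 and 4130 FPKM in control livers and at 4003, 4254 and 4657 FPKM in knockout livers. FPKM is the number of mapped fragments scaled to transcript length and to all mapped fragments of a library, so levels of different genes can be set side by side. The table sorts the values of a gene within a group as text, so a column follows no single mouse, and values below run from low to high. Bulk liver RNA cannot tell fewer cells of a type from less RNA per cell.

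Cells build cholesterol from acetyl-CoA. The mevalonate pathway makes isoprenoid units, these are joined to squalene, squalene is closed into lanosterol, and a series of enzymes of the endoplasmic reticulum trims lanosterol to cholesterol. SREBP2 is made as a membrane protein that SCAP carries to the Golgi, where a pair of proteases frees its active part. When sterols are plentiful, the INSIG proteins hold SCAP in the endoplasmic reticulum and the genes that SREBP2 activates are transcribed less. The liver is a main site of cholesterol synthesis, and hepatocytes also use cholesterol for bile acids and lipoproteins.

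None of the 27 genes passed the test between knockout and control livers. Across all 11687 genes tested, 42 were called higher (0.359%) and 24 lower (0.205%) in knockout livers at an adjusted p under 0.05 (limma), and the members' adjusted p ran from 0.152 to 0.979. The largest difference among the members was 0.52 on the log2 scale, in size, while the smallest among the genes called was 0.71 and their median was 1.27. At an unadjusted p under 0.05, 7 members were higher (25.9%, beside 6.08% of all genes tested) and 1 was lower (3.70%, beside 3.56%). Over the alternative settings these counts ran from 4 to 8 and from 0 to 2, and no member was called in any of them. All values in knockout livers lay above both control values for 9 members (33.3%, beside 15.1% of all genes tested) and below both for 1 member (3.70%, beside 10.7%). The median log2 difference was 0.13 over the members and 0.03 over all genes tested, and it was above 0 for 18 of 27 members (66.7%) and for 54.9% of all genes.

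The sequences just upstream of the genes were read to show which known elements they hold. SREBP2 binds the sterol regulatory element and usually acts together with the factors NF-Y and Sp1, which bind nearby. RefSeq promoters of build GRCm38.p6, 300 bases from 250 before the transcript start to 50 after it, were matched by symbol for 23 of the 27 genes, taking the most upstream start of each gene. They were matched for neither *Fdps*, *Fdft1*, *Sqle* nor *Stard4*. The printed stretches are the 250 bases before the start, 5′ to 3′ on the gene's own strand, and 3 are from the enzymes with a window whose knockout values all lay above the control values and whose knockout mean was over 100 FPKM. The last is from *Insig1*, the member whose values lay below. These genes were chosen after their values were seen. Capitals mark matches, on either strand, to TCACNCCAC (a sterol regulatory element), CCAAT (NF-Y), GGGCGG (Sp1) or CACGTG (E-box). The *Idi1* stretch is chr13:8885356-8885605 on the plus strand, that of *Msmo1* is chr8:64733579-64733828 on the minus strand, that of *Hmgcs1* is chr13:119690101-119690350 on the plus strand and that of *Insig1* is chr5:28071162-28071411 on the plus strand.
Idi1: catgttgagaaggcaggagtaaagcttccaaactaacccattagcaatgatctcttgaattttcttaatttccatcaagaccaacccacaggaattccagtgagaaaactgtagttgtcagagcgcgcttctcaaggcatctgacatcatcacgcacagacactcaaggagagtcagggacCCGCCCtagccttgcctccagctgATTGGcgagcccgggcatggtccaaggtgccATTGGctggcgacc
Msmo1: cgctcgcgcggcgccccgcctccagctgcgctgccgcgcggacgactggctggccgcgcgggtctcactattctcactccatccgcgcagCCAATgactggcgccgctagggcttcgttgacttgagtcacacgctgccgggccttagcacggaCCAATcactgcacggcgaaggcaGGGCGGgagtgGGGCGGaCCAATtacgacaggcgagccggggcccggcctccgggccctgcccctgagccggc
Hmgcs1: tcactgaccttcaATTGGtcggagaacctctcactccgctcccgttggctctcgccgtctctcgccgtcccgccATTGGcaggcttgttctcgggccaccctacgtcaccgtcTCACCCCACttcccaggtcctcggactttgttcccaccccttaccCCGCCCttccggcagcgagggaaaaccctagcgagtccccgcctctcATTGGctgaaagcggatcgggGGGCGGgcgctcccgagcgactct
Insig1: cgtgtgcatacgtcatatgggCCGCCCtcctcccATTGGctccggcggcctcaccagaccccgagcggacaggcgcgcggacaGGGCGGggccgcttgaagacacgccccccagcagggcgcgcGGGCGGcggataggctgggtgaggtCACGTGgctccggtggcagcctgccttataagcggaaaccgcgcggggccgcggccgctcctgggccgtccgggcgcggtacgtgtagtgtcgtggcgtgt

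The *Hmgcs1* stretch holds TCACCCCAC starting 137 bases before the transcript start, and *Hmgcs1* is the only one of the 23 genes with a match to TCACNCCAC in its window (4.35%, beside 1.15% of the 8791 tested genes with a window). CCAAT was in the windows of 18 of 23 members (78.3%), of 38.9% of tested genes and of 38.0% of all 27025 genes with a window. The mean number of CCAAT matches was 1.83 per member window and 0.616 per window of a tested gene. In the printed stretches it appears mostly as ATTGG, its other strand, for instance 45 bases before the start of both *Idi1* and *Hmgcs1*. GGGCGG was in 19 of 23 member windows (82.6%, beside 63.8% of tested genes), and the median GC content was 62.3% in member windows and 60.7% in those of tested genes. CACGTG was in 4 of 23 (17.4%, beside 10.5%), and in *Insig1* it starts 101 bases before the start. A match shows only that these letters are present, and binding was not measured in these livers. The search used 1 spelling of each element in 1 window per gene. The lack of a match therefore does not show that a gene lacks such an element.

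**Figure D1:**
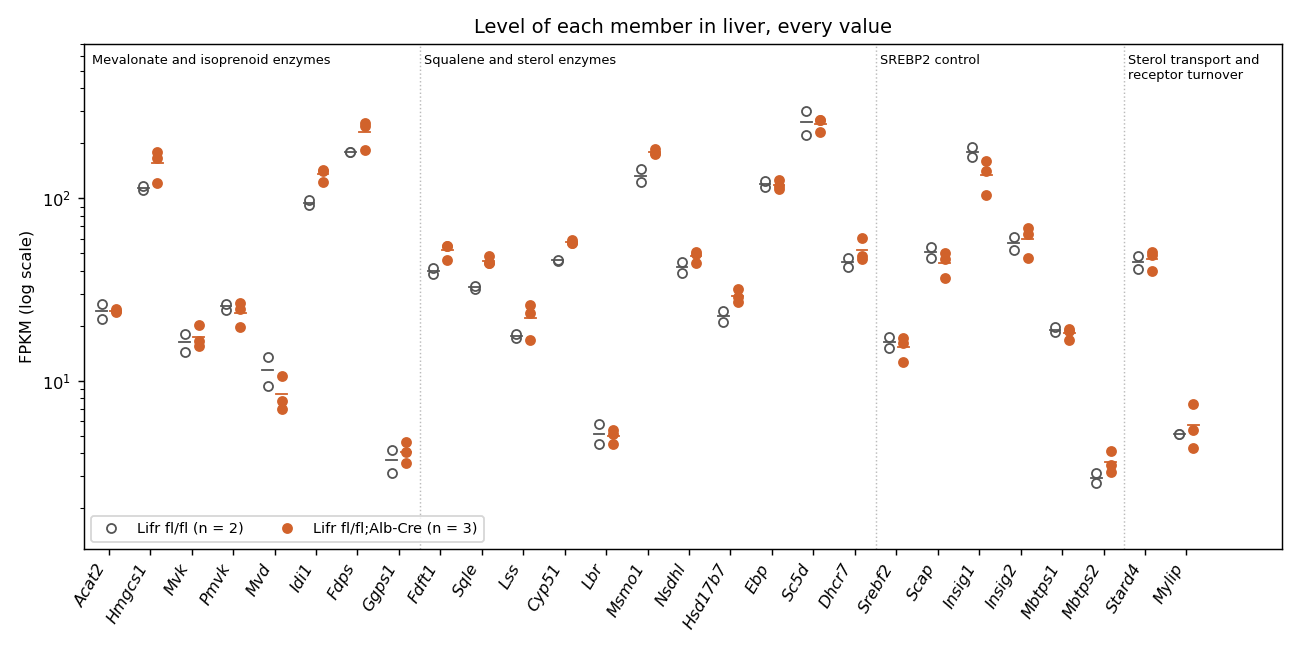
Level of the 27 genes in liver, in FPKM on a log axis, ordered along the pathway. Open circles are the 2 *Lifr* fl/fl livers, filled circles the 3 *Lifr* fl/fl;Alb-Cre livers and short lines the group means. *Hmgcs1*, *Idi1*, *Fdps*, *Fdft1*, *Sqle*, *Cyp51*, *Msmo1*, *Hsd17b7* and *Mbtps2* have all filled circles above the open ones, and *Insig1* has them below.

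The mevalonate enzymes came first. *Idi1* (XLOC_005020, chr13:8885606-8892396), the isomerase that interconverts the isoprenoid building blocks, was at 91.5 and 97.3 FPKM in control livers and at 123, 142 and 143 FPKM in knockout livers. The groups did not overlap, with means of 94.4 ± 4.13 FPKM (SD, n = 2) and 136 ± 11.1 FPKM (SD, n = 3). Its log2 fold change of 0.52 (standard error 0.12, 95% interval 0.25 to 0.80, limma, adjusted p = 0.152) was the largest of the members, and it ranked 146 of 11687 by p. *Hmgcs1* (XLOC_005423, chr13:119690351-119708260), which makes HMG-CoA for the pathway, was at 111 and 117 FPKM in control livers and at 122, 166 and 178 FPKM in knockout livers. The lowest knockout value stood close to the controls and apart from the other two, and the log2 fold change was 0.43 (interval 0.06 to 0.80, limma, adjusted p = 0.445). *Fdps* (XLOC_013637, chr3:89093588-89101967), which makes farnesyl diphosphate, was alike in shape, with 178.2 and 178.7 FPKM in control livers and 184, 248 and 258 FPKM in knockout livers. Its log2 fold change was 0.35, with an interval of -0.0045 to 0.70 that includes 0.

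The other mevalonate enzymes had overlapping groups. *Mvd*, the decarboxylase that yields isopentenyl diphosphate, had the lowest log2 fold change of the members at -0.44 (interval -0.89 to 0.015, limma, adjusted p = 0.536). Its control values were 9.40 and 13.5 FPKM and its knockout values 7.04, 7.70 and 10.6 FPKM, so the highest knockout liver lay between the controls. With 1 value left out the log2 fold change of *Mvd* ran from -0.70 to -0.18, and at -0.18 it was no longer the lowest. *Mvk*, mevalonate kinase, was at 14.4 to 18.1 FPKM in control livers and 15.6 to 20.1 FPKM in knockout livers. *Pmvk*, the next kinase, was at 24.5 to 26.5 FPKM and 19.7 to 26.6 FPKM. For both kinases the log2 differences were small, 0.10 and -0.12. *Acat2*, the cytosolic thiolase that joins acetyl-CoA units, was at 21.8 and 26.3 FPKM in control livers, and its knockout values of 23.8, 24.2 and 24.6 FPKM all lay between them. *Ggps1*, which makes geranylgeranyl diphosphate for protein prenylation, was lower in level at 3.14 to 4.19 FPKM and 3.53 to 4.59 FPKM, with a log2 fold change of 0.15. The log2 fold change was above 0 for 6 of the 8 mevalonate enzymes, and its median was 0.13.

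The log2 fold change was above 0 for 8 of the 11 squalene and sterol enzymes tested, its median was 0.30, and 5 enzymes had knockout values all above the control values, beside 54.9% of all genes tested above 0 and 15.1% not overlapping in this direction. *Fdft1* (XLOC_006621, chr14:63145150-63181687), squalene synthase, was at 38.6 and 41.6 FPKM in control livers and at 46.0, 54.4 and 55.0 FPKM in knockout livers. This was a log2 fold change of 0.37 (interval 0.08 to 0.65, limma, adjusted p = 0.373). *Sqle* (XLOC_006881, chr15:59315092-59331193), squalene epoxidase, a rate-controlling step, was at 31.9 and 32.9 FPKM in control livers and at 44.0, 44.1 and 48.0 FPKM in knockout livers. The gap between the groups was wider than the range within either, and the means were 32.4 ± 0.710 FPKM (SD, n = 2) and 45.3 ± 2.25 FPKM (SD, n = 3). The log2 fold change of *Sqle* was 0.48 (standard error 0.11, interval 0.23 to 0.74, limma, adjusted p = 0.152), next in size to that of *Idi1*. *Lss*, which closes squalene epoxide into lanosterol, was at 17.2 and 18.02 FPKM in control livers and at 16.7, 23.4 and 25.9 FPKM in knockout livers. Here 1 knockout liver fell below both controls, and the interval of the log2 fold change of 0.30 ran from -0.10 to 0.69. It was 0.17 to 0.48 with 1 value left out.

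*Cyp51* (XLOC_016093, chr5:4080674-4104697), the lanosterol demethylase, was at 45.3 and 46.0 FPKM in control livers and at 56.6, 56.8 and 59.2 FPKM in knockout livers. Its standard error of 0.11 was the smallest of the members (log2 fold change 0.33, interval 0.09 to 0.58, limma, adjusted p = 0.342). *Msmo1* (XLOC_020987, chr8:64718123-64733578), the oxygenase that starts removal of the remaining methyl groups, was at 122 and 144 FPKM in control livers and at 174, 177 and 186 FPKM in knockout livers. Its log2 fold change was 0.43 (interval 0.15 to 0.71, limma, adjusted p = 0.240), with the control livers farther apart than the knockout livers. *Hsd17b7* (XLOC_001174, chr1:169949535-169969242), the reductase that completes that removal, was at 21.0 and 24.1 FPKM in control livers and at 27.1, 28.6 and 31.8 FPKM in knockout livers (log2 fold change 0.37, interval 0.09 to 0.66, limma, adjusted p = 0.358). *Nsdhl*, the dehydrogenase that acts between *Msmo1* and *Hsd17b7*, was at 38.9 and 45.0 FPKM in control livers and at 43.9, 49.6 and 50.5 FPKM in knockout livers. Its groups overlapped by 1 knockout value, and the log2 fold change was 0.20 (interval -0.09 to 0.48).

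The late enzymes were nearly level between the groups or overlapped. *Sc5d*, a sterol desaturase, was the member with the highest mean, at 222 and 299 FPKM in control livers and 229, 268 and 269 FPKM in knockout livers, all 3 between the controls. *Ebp*, the sterol isomerase, was at 115 and 124 FPKM in control livers and at 113, 116 and 126 FPKM in knockout livers. The log2 fold changes of these enzymes were -0.01 (interval -0.36 to 0.33) and -0.02 (interval -0.28 to 0.25). *Dhcr7*, the reductase that yields cholesterol, was at 42.1 and 47.0 FPKM in control livers and at 46.4, 48.4 and 60.4 FPKM in knockout livers (log2 fold change 0.21). *Lbr*, a nuclear envelope protein with sterol reductase activity, was at 4.47 to 5.76 FPKM and 4.51 to 5.36 FPKM.

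**Figure D2:**
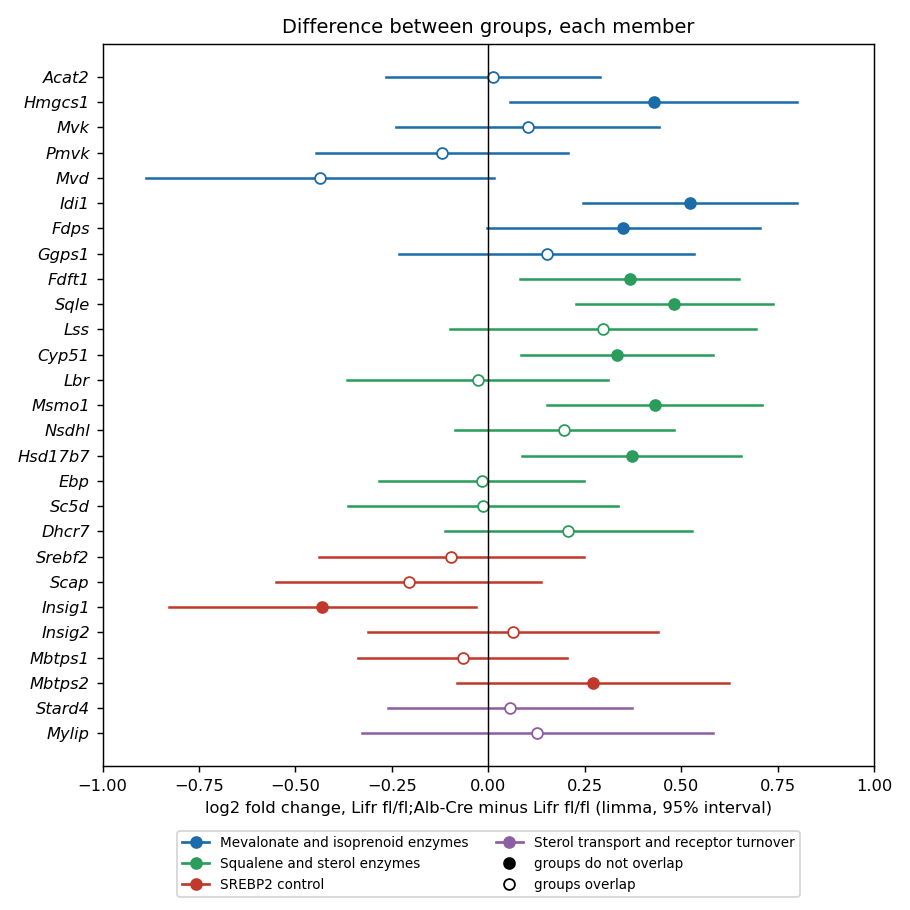
Log2 fold change of each of the 27 genes, *Lifr* fl/fl;Alb-Cre minus *Lifr* fl/fl livers, with its 95% interval from limma on log2(FPKM + 0.1). Filled points are genes whose groups do not overlap. The intervals of 7 genes lie above 0 and that of *Insig1* lies below, before any adjustment for the 11687 genes tested.

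Among the genes that control SREBP2, *Insig1* (XLOC_015477, chr5:28071412-28078662) had knockout values all below the control values. It was the only such member (3.70%, beside 10.7% of all genes tested). It was also the only member lower at an unadjusted p under 0.05 (limma, 3.70%, beside 3.56%). INSIG1 holds the SCAP and SREBP complex in the endoplasmic reticulum, and its gene is itself activated by SREBP2. It was at 169 and 190 FPKM in control livers and at 104, 141 and 160 FPKM in knockout livers, and the groups did not overlap. The means were 179 ± 15.2 FPKM (SD, n = 2) and 135 ± 28.5 FPKM (SD, n = 3). The log2 fold change was -0.43 (standard error 0.18, interval -0.83 to -0.03, limma, unadjusted p = 0.0366, adjusted p = 0.487). When 1 value was left out it ran from -0.56 to -0.25 and the unadjusted p from 0.00745 to 0.214, and the unadjusted p was 0.0554 with no filter on low values and 0.0591 without a trend. *Insig2*, its paralog, which is not activated by SREBP2 in the same way, was at 52.1 and 60.9 FPKM in control livers and at 47.0, 63.7 and 68.3 FPKM in knockout livers. These overlapped, with a log2 fold change of 0.06 (interval -0.31 to 0.44), and the difference between the paralogs was not tested.

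*Srebf2* itself, which encodes SREBP2, was at 15.0 and 17.5 FPKM in control livers and at 12.6, 16.1 and 17.1 FPKM in knockout livers, a log2 fold change of -0.10 (interval -0.44 to 0.25). *Scap*, the escort protein, was at 47.2 and 54.2 FPKM in control livers and at 36.3, 46.2 and 49.96 FPKM in knockout livers, with a log2 fold change of -0.21 (interval -0.55 to 0.14, and -0.31 to -0.07 with 1 value left out). In both genes the lowest liver was a knockout and the highest a control, with overlap between. *Mbtps1*, the protease that makes the first cut in SREBP2, was at 18.4 to 19.6 FPKM in control livers and 16.7 to 19.1 FPKM in knockout livers. *Mbtps2*, the protease that makes the second cut, was at 2.75 and 3.14 FPKM in control livers and at 3.17, 3.46 and 4.13 FPKM in knockout livers. Its groups were separated by less than the range within either group (log2 fold change 0.27, interval -0.08 to 0.62). SREBP2 is regulated by transport and cleavage of the protein, which RNA levels do not measure.

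The 2 remaining genes handle sterols or receptors. *Stard4*, a carrier that moves cholesterol between membranes and is activated by SREBP2, was at 41.0 to 48.1 FPKM in control livers and 40.0 to 50.4 FPKM in knockout livers (log2 fold change 0.06). *Mylip*, a ubiquitin ligase that directs lipoprotein receptors to degradation and is activated by the sterol sensor LXR, was at 5.07 and 5.08 FPKM in control livers and at 4.29, 5.34 and 7.46 FPKM in knockout livers. The knockout livers lay on both sides of the controls, and the standard error of *Mylip*, 0.20, was the largest of the members.

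By role, the log2 fold change was above 0 for 14 of the 19 enzymes tested, its median was 0.21, and 8 of these genes had knockout values all above the control values, beside 54.9% of all genes tested above 0 and 15.1% not overlapping in this direction. Of the 6 genes of SREBP2 and its control, 2 were above 0, with a median of -0.08. The difference between these roles was not tested. The summed level of the genes of a role in any 1 library must lie between the sum of their lowest and the sum of their highest values, whichever mouse each value belongs to. For the 8 mevalonate enzymes these bounds were 454 to 482 FPKM in control livers and 499 to 665 FPKM in knockout livers, which do not overlap. For the 11 squalene and sterol enzymes they were 699 to 828 FPKM and 801 to 917 FPKM, which overlap. For SREBP2 and its control they were 304 to 345 FPKM and 220 to 319 FPKM. Most of the sum of the 8 mevalonate enzymes came from *Fdps*, *Hmgcs1* and *Idi1*, whose groups did not overlap. The others of the 8 had overlapping groups, so the gap between these bounds restates those abundant genes. Whether the same knockout liver was high for several enzymes cannot be read from these values.

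**Figure D3:**
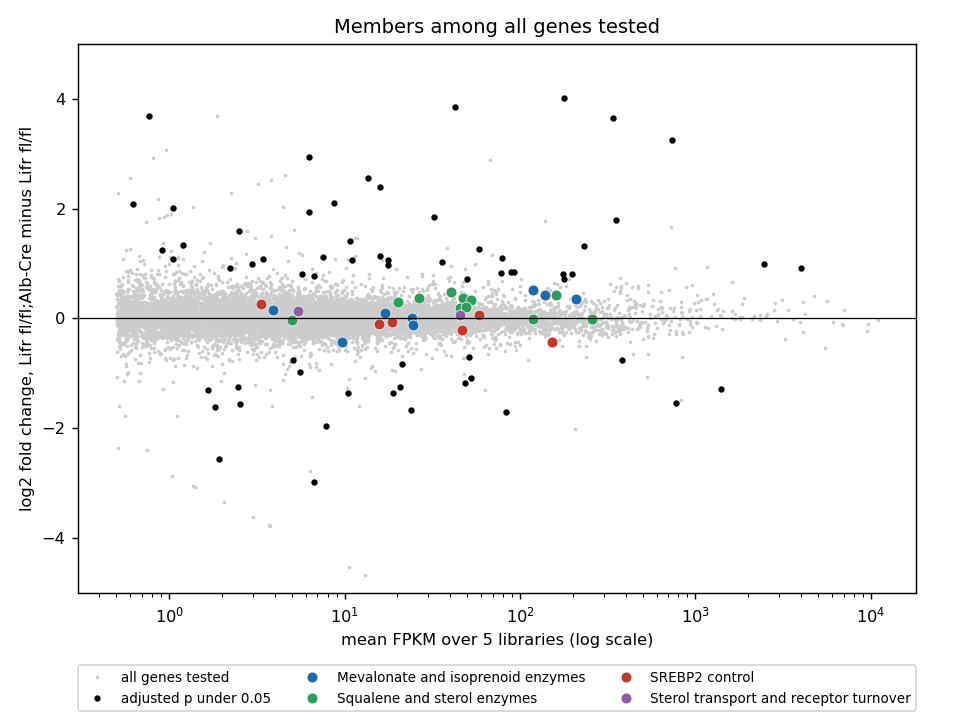
Log2 fold change against mean FPKM over 5 libraries (log axis) for the 11687 genes tested, with the members in color by role and the genes at an adjusted p under 0.05 in black. 6 genes lie outside the plotted range. The members sit to the right, with a median mean level of 45.6 FPKM beside 7.43 FPKM for all genes tested, and within 0.52 of 0.

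The precision sets what could be seen. The standard error of a member's log2 fold change had a median of 0.15, the same as that of all genes tested after rounding, and the 95% interval reached 0.34 to either side at the median. Over the members, the intervals reached from a fold of 0.540 to a fold of 1.74. An exact permutation test of 2 against 3 libraries has 10 arrangements. With the two-sided p taken as 2 times the smaller tail, that p cannot fall below 0.2, the value for *Idi1*. Near-identical copies could affect the reads of 5 members, since at least 25% of the transcript matches other genes, counted over all of them together. These are *Fdps* (91.4% of the transcript), *Acat2* (65.6%, mostly *Acat3*), *Fdft1* (54.7%), *Idi1* (33.3%) and *Ggps1* (27.3%). Only uniquely mapped reads were kept, and whether these 5 members gained or lost reads through the copies was not tested. Among the other 22 members, 6 had knockout values all above the control values, beside 15.1% of all genes tested. Of these 22, 1 had them all below, beside 10.7%. *Mbtps2*, among those 6, shares 28.4% of exonic sequence with an overlapping gene on the same strand, and *Fdps* shares 26.7%.

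Genes that feed or surround the pathway were read from lists. Of 171 list entries, members included, 168 were found in the table. No gene was called among 13 isoprenoid branch genes (6 above 0, median log2 fold change -0.04), 4 electron donors (median 0.01), 12 genes of SREBP transport (4 above 0, median -0.03), 8 genes of sterol-regulated degradation (7 above 0, median 0.09) or 13 genes of LXR sensing, export, storage and uptake (8 above 0, median 0.09). The 2 most abundant genes of each of these lists had log2 fold changes between -0.25 (*Cyb5r3*) and 0.24 (*Scarb1*). Other genes of these lists, named after their values were seen, reached 0.52 (*Por*, groups overlapping), 0.49 (*Pdss1*, not overlapping) and -0.53 (*Soat2*, not overlapping). *Pgrmc1*, a heme-binding membrane protein, was at 634 to 694 FPKM in control and 631 to 697 FPKM in knockout livers, and *Lcat*, which esterifies cholesterol in plasma, was at 242 to 251 FPKM and 236 to 321 FPKM. All 5 genes of acetyl-CoA and acetoacetate supply were below 0, with a median of -0.21 and none called. *Slc25a1*, the citrate carrier of mitochondria, was at 156 and 165 FPKM in control livers and at 111, 138 and 142 FPKM in knockout livers (log2 fold change -0.31, limma, adjusted p = 0.519). The other SREBP2-induced genes were 3, all above 0, with *Tmem97* at 62.1 and 72.4 FPKM in control livers and 72.2, 74.7 and 78.7 FPKM in knockout livers (log2 fold change 0.16).

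Fatty acid synthesis, the branch of lipid synthesis under SREBP1, had 1 called gene. *Scd1*, which desaturates fatty acids, was at 866 and 1722 FPKM in control livers and at 375, 444 and 448 FPKM in knockout livers, a log2 fold change of -1.54 (limma, adjusted p = 0.0321). The control livers differed most, and the call was lost in 4 of 12 alternative settings (adjusted p from 0.0224 to 0.31). Of the 12 genes tested, 1 was above 0 (beside 54.9% of all genes tested), 5 had knockout values all below the control values (beside 10.7% of all genes tested), and the median was -0.22. The median of the cholesterol enzymes was 0.21, and the difference between these lists was not tested.

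**Figure D4:**
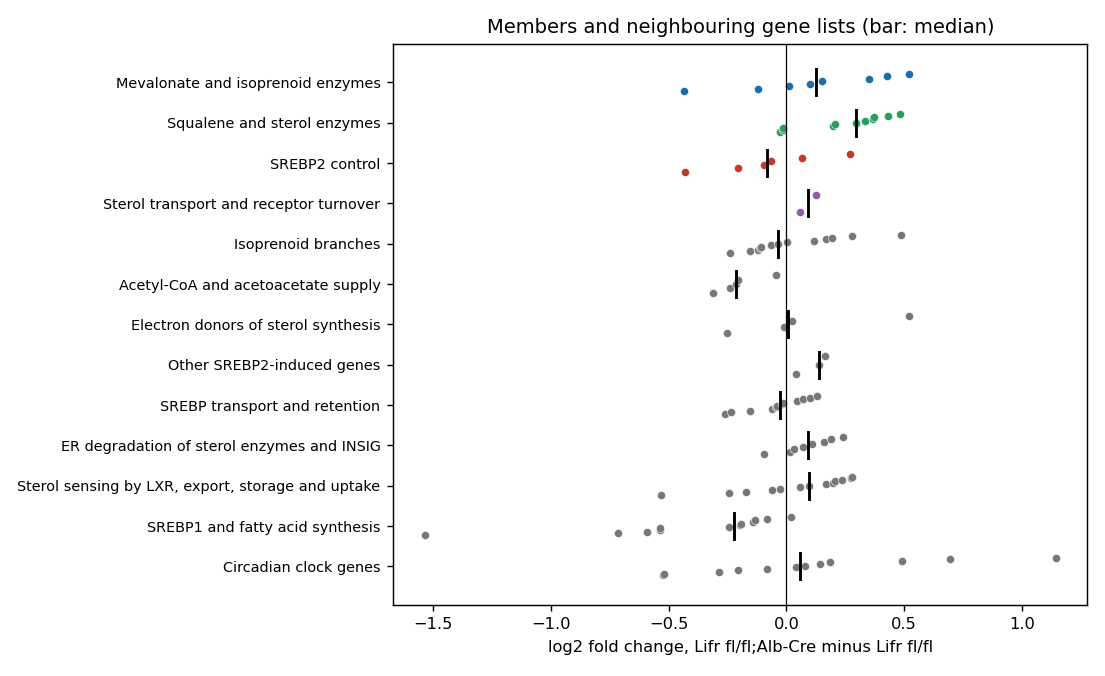
Log2 fold change of every tested gene of each list, *Lifr* fl/fl;Alb-Cre minus *Lifr* fl/fl livers, 1 point a gene, with the median of the list as a line. The squalene and sterol enzymes have a median of 0.30, SREBP2 and its control one of -0.08 and fatty acid synthesis one of -0.22, where *Scd1* is the point farthest to the left.

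Markers of other cells were read beside these values. All 11 Kupffer cell markers had a log2 fold change above 0 (median 0.42), as did 54.9% of all genes tested, and none was called or listed at 0. For 8 of them the knockout values all lay above the control values, beside 15.1% of all genes tested. Their summed level lay within 282 to 319 FPKM in control livers and 351 to 492 FPKM in knockout livers. Neutrophil markers lay within 3.00 to 4.56 FPKM and 7.04 to 12.1 FPKM in sum, with *S100a9* called higher (log2 fold change 1.59, limma, adjusted p = 0.0181, over the threshold in 3 of 12 alternatives) and with *Camp* and *Ngp* listed at 0 throughout a group. Hepatocyte markers had 9 of 10 above 0 (median 0.19) and summed to 19150 to 22050 FPKM and 19400 to 25690 FPKM. None of the cholangiocyte, endothelial, stellate or lymphocyte markers tested was called. Of the 6 cholangiocyte markers only 4 passed the filter and were tested, and of the 8 lymphocyte markers only 3. Of the 8 neutrophil markers 7 were found and summed, and only 4 passed the filter and were tested. Among 8 stellate markers 3 were lower and 1 higher with groups not overlapping, beside 10.7% and 15.1% of all genes tested. Among 12 clock genes none was called. Knockout values lay all above the control values for 3 and all below for 2, beside 15.1% and 10.7% of all genes tested, and the other groups overlapped. At an unadjusted p under 0.05 (limma) 3 of the 12 were higher and 1 lower, beside 6.08% and 3.56% of all genes tested. The log2 fold changes of the 3 higher genes, named after their values were seen, were 1.14 for *Ciart*, 0.69 for *Per1* and 0.49 for *Per2*. *Arntl*, at a mean of only 0.70 FPKM, was at -0.52 with groups not overlapping. *Dbp*, the most abundant clock gene tested, had overlapping groups. It was at 77.8 and 88.5 FPKM in control livers and at 48.4, 79.6 and 81.9 FPKM in knockout livers (log2 fold change -0.28, limma, adjusted p = 0.714). *Nr1d1*, a repressor of the clock that also acts on lipid genes, was at 67.2 and 84.0 FPKM in control livers and at 44.3, 52.6 and 61.4 FPKM in knockout livers (log2 fold change -0.52, limma, adjusted p = 0.289). The hour of collection and the feeding state are not given in the sources used here. The part of these cells and of the clock in the values of the cholesterol genes was not tested.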

How the data were processed

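RNA-seq libraries came from livers of 2 control and 3 knockout mice. The authors used TopHat2 2.1.1 to place reads on mm10 after a quality check in FastQC 0.11.5, SAMtools 1.5 to keep those mapped uniquely, and Cufflinks 2.2.1 with RefSeq genes to obtain the deposited FPKM used here. The deposited table also holds a log2 fold, a p-value and a call per gene from the authors' comparison of the groups, which were not used. Depth is unknown because no read totals are given, so precision rests on the spread between libraries.

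The 11687 genes that averaged 0.5 FPKM or more across the 5 libraries were tested by limma 3.58.1 in R 4.3.3 (lmFit, eBayes with a trend, two-sided) on log2(FPKM + 0.1), with p-values adjusted over all genes tested after Benjamini-Hochberg and a threshold of 0.05. Fold changes on this scale understate the change of low genes. The procedure was tested on simulated data, drawn independently with the spreads shuffled over genes. That simulation did not carry the trend of spread with level. Because the columns of a group follow no single mouse, scaling between libraries was not done, and a value was left out in 5 fits in which it rotates from gene to gene. Other alternatives were a pseudocount of 1 or 0.01 FPKM, a minimum of 1 FPKM or none, no trend, an adjusted p under 0.1, and removal of the median shift between groups. Near-identical copies were stretches of at least 100 bases at 95% identity. Coordinates, promoters and overlaps are those of the mm10 assembly (GRCm38).

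The members and lists were chosen with earlier results of these data known. All members are described. From each other list the rule names members past the threshold, or else the 2 with the highest mean FPKM, and not every such gene is printed. Values of every library are given for members with an unadjusted p under 0.05 or a mean of at least 50 FPKM, and for others by choice after their values were seen.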

Additional observations from a re-analysis of the deposited data

How the results depend on the processing

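No member was called in any of 12 alternative settings, and the lowest adjusted p was 0.116, for *Hmgcs1* with 1 knockout value left out. Of 27 members 16 kept their sign throughout. The genes called higher and lower in all, 42 and 24, became 11 and 5 with no filter, 21 and 11 without a trend, and 68 and 41 at an adjusted p under 0.1, and with 1 value left out they ran from 5 to 64 and from 8 to 39. The members at an unadjusted p under 0.05 ran from 4 to 8 higher and from 0 to 1 lower with 1 value left out, and the lower count was 0 with no filter, 0 without a trend and 2 with the shift between groups removed. That removal also turned *Acat2* to -0.013. The causes of these changes were not tested. With 1 value left out, the log2 fold change ran from -0.12 to 0.15 for *Acat2*, -0.061 to 0.26 for *Mvk*, -0.21 to 0.0056 for *Pmvk*, -0.051 to 0.35 for *Ggps1*, -0.21 to 0.15 for *Lbr*, -0.071 to 0.038 for *Ebp*, -0.23 to 0.20 for *Sc5d*, -0.20 to 0.034 for *Srebf2*, -0.048 to 0.23 for *Insig2*, -0.059 to 0.17 for *Stard4* and -0.083 to 0.31 for *Mylip*. It kept its sign for *Idi1* (0.48 to 0.59), *Sqle* (0.44 to 0.50), *Hmgcs1* (0.32 to 0.59) and *Insig1* (-0.56 to -0.25). No paired analysis was possible because the columns follow no single mouse. Depth is unknown, so no counting error can be given.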
